A study of Mus musculus with 4 samples.

Results

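The clustered histone genes of the mouse carry symbols that begin with Hist1h, Hist2h, Hist3h or Hist4h, and the promoters described here are the rows of the deposited promoter table with such a symbol. There were 60 of them among 26354 promoters, chosen by symbol and not by read values, though with earlier results of these data known. They comprised 6 H1, 17 H2A, 16 H2B, 10 H3 and 11 H4 genes, and 49 of the 60 were Hist1h genes, 8 Hist2h, 2 Hist3h and 1 Hist4h. Dimethylated histone H3 lysine 9 (H3K9me2), a mark of repressed chromatin, was mapped by chromatin immunoprecipitation and sequencing (ChIP-seq) in vascular smooth muscle cells taken straight from the mouse aorta, with the question of which promoters carry it. There were 2 groups of 2 libraries, H3K9me2 ChIP and input (chromatin before precipitation), 1 of each from experiment v102 and from experiment v134. Both groups were the same material, the medial layer of the aorta of male C57Bl/6J mice, for which the labels name no transgene or agent, and from which the outer adventitial layer and the endothelium had been stripped by hand. Ages and the number of animals behind a library were not given in the sources used here. A hand-stripped medial layer can keep other cells, and reads at promoters do not measure expression, so the cell type could not be checked from these data. Of the 5 smooth muscle markers, 4 (Myh11, Acta2, Tagln and Cnn1) had between 0 and 5 ChIP reads per library and lay below the all-promoter median in both experiments, and Smtn had 15 and 34. The endothelial markers Pecam1, Cdh5 and Tek had 3 and 2, 9 and 8, and 12 and 13 ChIP reads in v102 and v134. The leukocyte markers Ptprc, Cd68 and Cd3e had 15 and 39, 6 and 0, and 13 and 10. Low reads were thus not limited to smooth muscle markers.

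Replication-dependent histone genes are short, mostly intronless genes that supply the core histones (H2A, H2B, H3 and H4, which form the nucleosome) and the linker histone H1 (which binds DNA between nucleosomes) while DNA is copied. They lie close together, many as divergent H2A and H2B pairs that share a single stretch of promoter, and their mRNAs end in a stem loop instead of a poly(A) tail. A few members of the Hist1h family serve the male germ line instead: Hist1h1t encodes the testis linker histone H1t, Hist1h2aa the testis H2A (TH2A) and Hist1h2ba the testis H2B (TH2B), the last of which replaces most H2B in developing sperm cells.

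The 3 testis-specific promoters are shown first because 2 of them ranked highest among the histone promoters. Each sequence is the 140 bases before and 10 bases after the RefSeq start (GRCm38.p6), 5′ to 3′ on the gene's own strand, and capitals mark matches, on either strand, to the TATA box motif TATAAA, to CCAAT, to the octamer motif ATTTGCAT and to the H1 box motif AAACACA.
Hist1h2ba, chr13:23934147-23934296, minus strand: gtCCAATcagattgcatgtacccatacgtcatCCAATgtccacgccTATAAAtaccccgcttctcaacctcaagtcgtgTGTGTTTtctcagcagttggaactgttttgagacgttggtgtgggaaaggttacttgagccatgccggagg
Hist1h2aa, chr13:23934297-23934446, plus strand: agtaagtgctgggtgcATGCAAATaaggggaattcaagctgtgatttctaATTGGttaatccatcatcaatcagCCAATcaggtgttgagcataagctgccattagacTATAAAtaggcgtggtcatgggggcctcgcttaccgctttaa
Hist1h1t, chr13:23695671-23695820, plus strand: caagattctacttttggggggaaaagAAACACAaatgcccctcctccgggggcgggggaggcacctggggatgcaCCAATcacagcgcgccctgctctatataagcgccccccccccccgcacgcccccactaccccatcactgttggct
The Hist1h2ba and Hist1h2aa sequences abut and are read outward on opposite strands, so together they span the stretch between the RefSeq starts of these 2 genes. Gene positions below are those of GENCODE, whose Hist1h2aa start lies 25 bases further downstream.

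Hist1h2ba and Hist1h2aa had the highest H3K9me2 of the 60 histone promoters. Hist1h2ba (chr13:23933773-23934156, minus strand, GRCm38) had 25 ChIP reads against 21 input reads in v102 and 21 against 28 in v134. Hist1h2aa (chr13:23934462-23934851, plus strand) had 23 against 22 and 21 against 40. Across the table the median promoter had 4 and 5 ChIP reads against 20 and 37 input reads, so the pair was far above the typical promoter in both experiments while its input was close to typical. With every library divided by its sum over the table and 1 read added, the log2 ratio of ChIP to input was 2.01 ± 0.23 (SD, n = 2) at Hist1h2ba and 1.67 ± 0.46 at Hist1h2aa, against a median of -0.31 over all promoters. These ratios lay at the 95.8th and 91.8th percentiles of all promoters. After scaling for library size, ChIP exceeded input by 4.48-fold at Hist1h2ba (log2 2.16 ± 0.39, SE) with an adjusted p of 7.7e-07 (quasi-likelihood test of edgeR, Benjamini-Hochberg over all promoters). Such folds, and the calls above or below input in what follows, are relative to the typical promoter, not to raw read numbers. At Hist1h2aa the fold was 3.43 (log2 1.78 ± 0.38, SE), with an adjusted p of 4.4e-05 by the same edgeR test. Their starts are only 306 bases apart and reads were counted within 1 kb of each start, so the 2 promoters share most of their reads and are a single measurement rather than 2.

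The third testis-specific gene did not share this level. Hist1h1t (chr13:23695814-23696725, plus strand) had 6 ChIP reads against 23 input reads in v102 and 4 against 27 in v134. Its log2 ratio was -0.05 ± 0.28 (SD, n = 2), at the 57.7th percentile, and edgeR's quasi-likelihood test gave an adjusted p of 0.93. The median log2 ratio of the 3 testis-specific promoters exceeded that of the other 46 Hist1h promoters by 1.78, a difference that rests on the pair. Over separate windows the testis-specific members had a deposited-scale ratio of 0.482, with a 95% Wilson interval of 0.349 to 0.666, against 0.200 (0.176 to 0.228) for the other Hist1h promoters. With 2 libraries against 2, an exact permutation test over the experiments cannot pass 0.05, so this difference carries no test of its own.

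The reads of the 4 libraries set how finely the other promoters can be read. Summed over the table, v102 had 162233 reads in the ChIP and 619100 in the input library, and v134 had 229605 and 1084349. Histone promoters had between 0 and 25 ChIP reads per library, with medians of 3 and 6, and between 7 and 63 input reads, with medians of 17 and 31.5. There were 9 histone promoters with 0 ChIP reads in v102 and 1 in v134, and 24 of the 60 had a 95% interval of the ratio that lay wholly below the table's 75th percentile, against 2 wholly above it, the testis pair. Intervals cover counting error only. Most promoters lie below a 75th percentile by definition, and such intervals were not counted over all promoters. These counts of intervals are therefore no result about the family.

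Few histone promoters differed from input by the test. By edgeR's quasi-likelihood test, after library scaling, 4 of the 60 were above input at an adjusted p under 0.05, beside 18.6% of all promoters. Below input were 2 of the 60, beside 17.0% of all promoters. With the experiment as a block in the same test the counts were 2 above, beside 15.8% of all promoters, and 2 below, beside 8.30%. Without the block, the other 54 histone promoters passed in neither direction, beside 16968 of all 26354 promoters. Taking the study's own measure of high H3K9me2, the top quartile of the deposited ratio (summed ChIP over summed input reads), 14 of the 60 histone promoters (23.3%) were in it, beside 25.0% of all promoters.

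The position of the family among all promoters differed between experiments. The median log2 ratio of the 60 was -0.34 in v102, below the -0.11 of all promoters, and 0.09 in v134, above the -0.38 of all promoters. Averaged over both experiments it was -0.12, with single promoters from -2.54 to 2.01. There were 21 histone promoters (35.0%) above the all-promoter median in both experiments, 13 (21.7%) below it in both and 26 (43.3%) on opposite sides. Over all promoters these shares were 38.0%, 38.0% and 23.8%, and the difference was not tested. The v102 and v134 ratios of the 60 were related with a Spearman's rho of 0.476 and a Pearson's r of 0.503, against a rho of 0.689 over all promoters. Those are correlations across promoters, which share libraries and in part windows, and are given as a description.

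**Figure D1:**
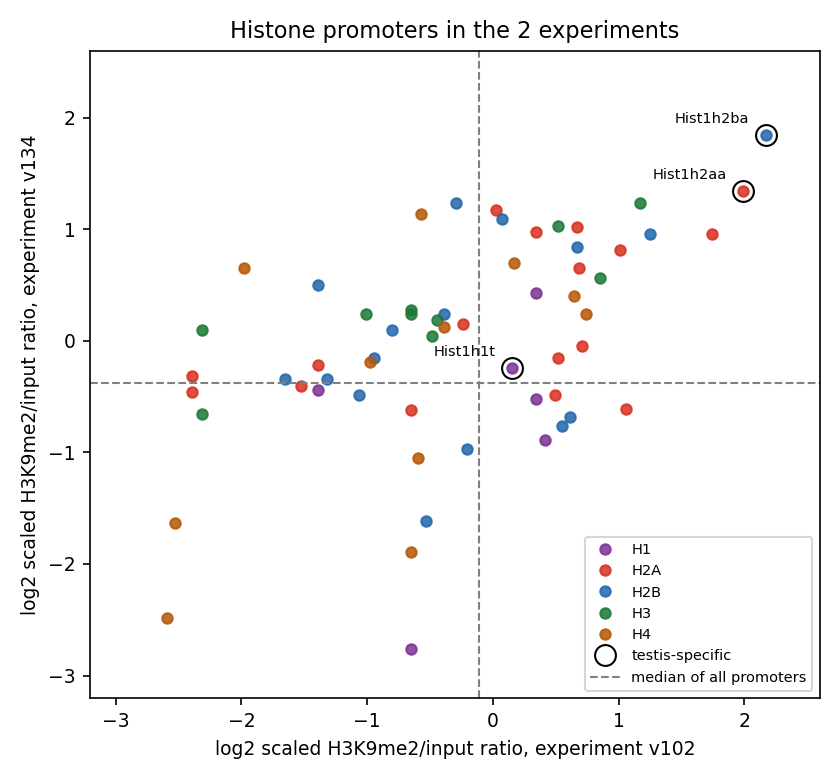
Each point is 1 of the 60 histone promoters, with the log2 scaled H3K9me2/input ratio in experiment v102 on the horizontal axis and in v134 on the vertical axis, coloured by histone class; dashed lines are the medians of all promoters (-0.11 and -0.38). Hist1h2ba and Hist1h2aa lie at the upper right, high in both experiments, while many other promoters change sides between experiments.

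Among the classes, H2A promoters had the highest median and H4 promoters the lowest. The classes are not separate measurements: 41 of the 60 promoters share windows with another member, and the 60 fall into 37 groups of overlapping windows. The median log2 ratio was 0.22 for the 17 H2A promoters, -0.16 for the 6 H1, -0.20 for the 10 H3, -0.23 for the 16 H2B and -0.58 for the 11 H4 promoters. H2A had 6 promoters (35.3%) in the top quartile of the deposited ratio, H2B 5 (31.25%) and H3 3 (30.0%), while H1 and H4 had none. The share of all promoters was 25.0%. The testis pair gives 1 promoter each to H2A and H2B, and divergent pairs with shared windows put the same reads into both classes. Every class overlapped every other, and the order was not kept between experiments: the H2A median was 0.49 in v102 and -0.05 in v134, that of H4 was -0.59 and 0.12, that of H3 was -0.57 and 0.24, and that of H1 was 0.25 and -0.48. The differences between class medians were thus within the spread between experiments. Over separate windows, the H2A ratio of summed reads was 0.280 (95% interval 0.240 to 0.327) and the H4 ratio 0.177 (0.145 to 0.216), beside 0.230 for the whole table. Windows were kept separate only within a class, so sums of different classes can hold the same reads. Without the testis gene Hist1h2aa the H2A ratio was 0.241 (0.204 to 0.286), and its interval then overlapped that of H4. For all 60 members it was 0.202 (0.181 to 0.226), and without the testis pair 0.185 (0.164 to 0.208).

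**Figure D2:**
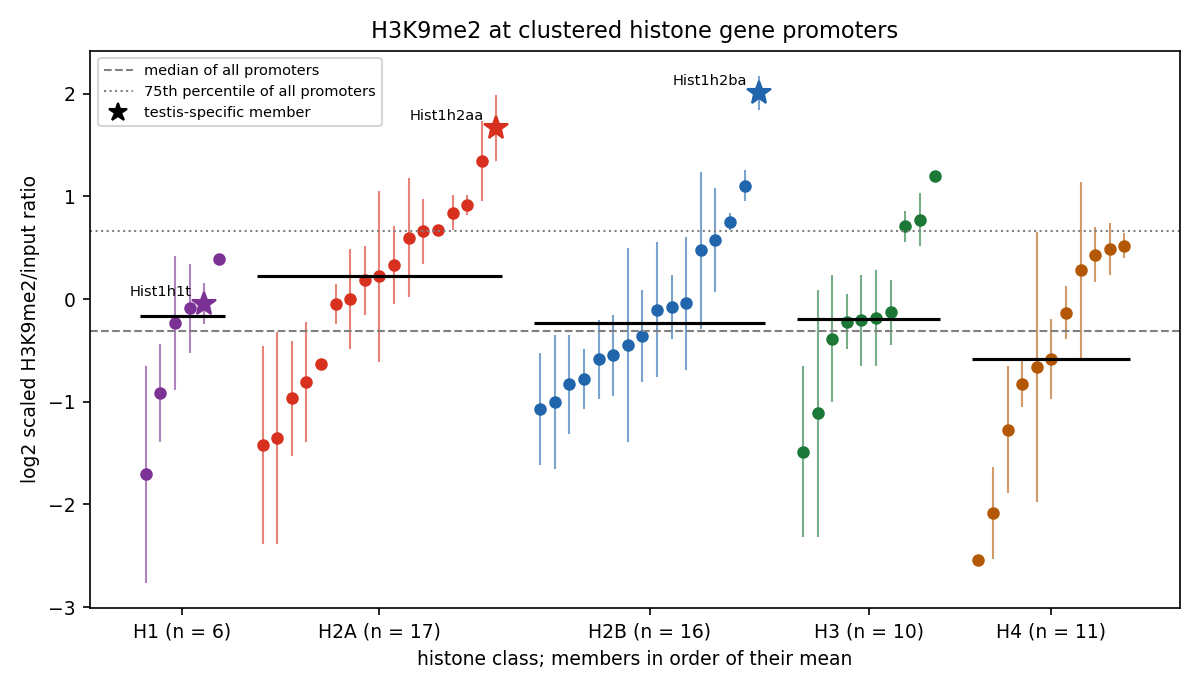
Points are the mean log2 scaled H3K9me2/input ratio of each histone promoter over the 2 experiments, with a vertical line from the lower to the higher experiment, ordered within H1, H2A, H2B, H3 and H4; black bars are class medians and stars the testis-specific members. The 5 classes overlap, H2A has the highest median (0.22) and H4 the lowest (-0.58), and no H1 or H4 promoter passes the 75th percentile of all promoters, 0.66.

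Linker histone promoters were spread from near the bottom of the table to above its middle. Hist1h1b (H1.5) was the lowest, with 3 ChIP reads against 23 input reads in v102 and 0 against 31 in v134. Hist1h1a (H1.1) was the highest, with 7 against 23 and 13 against 48. Their log2 ratios were -1.71 ± 1.49 and 0.39 ± 0.06 (SD, n = 2), and edgeR's quasi-likelihood test gave adjusted p values of 0.055 and 0.44. Of the 6 H1 promoters, 5 hold the H1 box, a motif known from linker histone promoters, and Hist1h1a does not. The same stretch of these 2 promoters is shown to compare the lowest and the highest H1 gene.
Hist1h1b, chr13:21780616-21780765, minus strand: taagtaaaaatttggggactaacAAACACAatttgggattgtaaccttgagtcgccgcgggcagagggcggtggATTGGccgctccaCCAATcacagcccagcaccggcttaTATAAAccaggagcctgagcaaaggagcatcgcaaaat
Hist1h1a, chr13:23763528-23763677, plus strand: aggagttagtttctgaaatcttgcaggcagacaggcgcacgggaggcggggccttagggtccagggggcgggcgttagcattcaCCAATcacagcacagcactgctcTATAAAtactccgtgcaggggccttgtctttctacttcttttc
Both hold a TATA box and at least 1 CCAAT box.

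Core histone promoters called above input, apart from the testis pair, were Hist1h3a and Hist1h2ae. Hist1h3a, an H3 gene at chr13:23761853-23762386, had 9 ChIP reads against 16 input reads in v102 and 13 against 27 in v134, a 2.44-fold excess (log2 1.29 ± 0.48, SE) with an adjusted p of 0.026 by edgeR's quasi-likelihood test. Hist1h2ae, an H2A gene at chr13:23570517-23571220, had 6 against 7 and 13 against 33, a 2.32-fold excess (log2 1.21 ± 0.51, SE) with an adjusted p of 0.0497. Both calls were lost with the experiment as a block (adjusted p of 0.066 and 0.10, edgeR), and without the v134 ChIP library, the v102 input or the v134 input. The call of the testis pair held in each of those fits.

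The other promoters of the top quartile had values that did not pass the test. The divergent partner of Hist1h2ae is Hist1h2bg, an H2B gene with 4 ChIP reads against 7 input reads in v102 and 13 against 33 in v134. Next to these lie Hist1h2bf with 4 against 11 and 10 against 28, Hist1h2ad with 4 against 11 and 11 against 27, and Hist1h3d with 5 against 15 and 12 against 29. These 5 consecutive promoters, from Hist1h2ae to Hist1h3d, were all in the top quartile, with log2 ratios from 0.76 to 1.35, and fall into 2 groups of overlapping windows, so they are not 5 separate measurements. Hist1h2al had 8 against 16 and 21 against 58, with a log2 ratio of 0.92, and is annotated as a processed pseudogene away from the clusters, at chr13:51202727-51203065. Hist1h3h had 8 against 18 and 9 against 31, and Hist1h2bb, an H2B gene, 7 against 28 and 17 against 39. Hist1h2ag and Hist1h2bj, a divergent pair, had 3 against 14 and 10 against 22, and 2 against 13 and 10 against 21. The quartile began at a ratio of 0.343: Hist1h3h, at 0.347, was just inside, and Hist1h2ab, with 17 summed ChIP reads over 50 summed input reads and a ratio of 0.340, just outside. The 14 promoters of the top quartile fall into 9 groups of overlapping windows, and only 2 of them, the testis pair, were also at or above the 90th percentile, a ratio of 0.648.

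At the low end, 2 histone H4 promoters were called below input. Hist2h4 (chr3:96261682-96263311) had 0 ChIP reads against 22 input reads in v102 and 1 against 52 in v134, and lay at the 1.68th percentile. Its single ChIP read over 74 input reads is a ratio of 0.014 with a 95% Wilson interval of 0.0024 to 0.077, and edgeR's quasi-likelihood test gave an adjusted p of 0.00084. Hist1h4d (chr13:23581598-23582735) had 0 against 21 and 2 against 43, a ratio of 0.031 (0.0084 to 0.116), with an adjusted p of 0.0095 by the same edgeR test. Both calls held with the block (adjusted p of 0.0096 and 0.043, edgeR). Without the v134 input neither was called, and that of Hist1h4d was also lost without the v102 ChIP library or the v102 input. The highest H4 promoter, Hist1h4i, had 8 against 21 and 11 against 42, a log2 ratio of 0.52 ± 0.17 (SD, n = 2) and an adjusted p of 0.36 (edgeR). Hist1h4d and Hist1h4i are printed to set a low beside a high H4 promoter.
Hist1h4d, chr13:23581428-23581577, plus strand: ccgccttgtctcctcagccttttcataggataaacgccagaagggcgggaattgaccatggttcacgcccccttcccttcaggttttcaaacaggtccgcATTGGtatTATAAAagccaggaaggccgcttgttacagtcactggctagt
Hist1h4i, chr13:22041353-22041502, minus strand: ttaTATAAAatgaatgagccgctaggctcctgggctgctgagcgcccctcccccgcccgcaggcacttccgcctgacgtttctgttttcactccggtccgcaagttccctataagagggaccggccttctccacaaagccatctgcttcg
Hist1h4d, which lies next to the 5 promoters just described, was the lowest member of the family on chromosome 13, and its start is 5835 bases from the nearest of them.

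In the other core classes the lowest promoters had few ChIP reads in v102 and were not called. Among H2A genes Hist3h2a was lowest with 0 ChIP reads against 19 input reads in v102 and 3 against 25 in v134, among H2B genes Hist1h2bp with 1 against 10 and 1 against 28, and among H3 genes Hist1h3i with 0 against 18 and 6 against 51. Their log2 ratios were -1.43, -1.07 and -1.48, with adjusted p values of 0.12, 0.10 and 0.11 by edgeR's quasi-likelihood test. Without the v134 ChIP library, 5 promoters with 0 ChIP reads in v102 (Hist3h2a, Hist1h3i, Hist1h4h, Hist1h2af and Hist1h3g) were called below input, so calls at the low end turn on 1 library. The promoters of these lowest members are printed for comparison with the testis pair above.
Hist3h2a, chr11:58954545-58954694, plus strand: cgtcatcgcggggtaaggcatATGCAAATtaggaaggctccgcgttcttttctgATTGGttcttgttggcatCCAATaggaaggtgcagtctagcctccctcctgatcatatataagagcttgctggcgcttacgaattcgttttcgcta
Hist1h2bp, chr13:21787348-21787497, plus strand: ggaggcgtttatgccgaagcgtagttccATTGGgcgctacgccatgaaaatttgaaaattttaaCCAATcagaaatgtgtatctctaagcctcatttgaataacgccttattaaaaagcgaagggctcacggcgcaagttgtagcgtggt
Hist1h3i, chr13:21783388-21783537, minus strand: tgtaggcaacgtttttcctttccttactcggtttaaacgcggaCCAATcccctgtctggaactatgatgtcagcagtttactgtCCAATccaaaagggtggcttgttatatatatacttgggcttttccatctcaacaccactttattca
The octamer, which occurs near the CCAAT boxes of Hist3h2a, occurs in Hist1h2aa as well, at the other end of the H2A range.

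Of the genes outside Hist1h, most were near the middle. On chromosome 3, the neighbouring H2A genes Hist2h2ab and Hist2h2ac, which run towards each other, had 3 ChIP reads against 17 input reads and 6 against 18 in v102, and 7 against 33 and 4 against 32 in v134. Hist2h2be, the divergent H2B partner of Hist2h2ac, had 4 against 21 and 3 against 36, Hist2h2bb 1 against 15 and 4 against 32, and the H3 gene Hist2h3b 2 against 17 and 8 against 34. The nearly identical copies Hist2h2aa1 and Hist2h2aa2 had 3 against 11 and 9 against 23, and 2 against 7 and 3 against 20, and Hist2h2aa1 was the only Hist2h promoter in the top quartile. Hist3h2ba on chromosome 11 had 2 against 19 and 6 against 30, and Hist4h4 on chromosome 6 had 3 against 22 and 4 against 48. None of these 9 was called, and Hist2h4 was the only Hist2h, Hist3h or Hist4h promoter that was.

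The 2 Hist1h clusters of chromosome 13 differed in their medians in both experiments. All 60 matched a gene of the GENCODE annotation (GRCm38), and 58 of them lay in 4 clusters of members less than 1 Mb apart. The 17 of the first chromosome 13 cluster, which spans 327 kb, had a median log2 ratio of -0.64 (-0.65 in v102 and -0.35 in v134), with 3 (17.6%) in the top quartile. The 31 of the second, which spans 403 kb, had a median of -0.05 (0.17 and 0.24) with 9 (29.0%) in the top quartile. Without the testis pair the second had a median of -0.08, with 7 of 29 (24.1%) in the top quartile, beside 25.0% of all promoters. Members of a cluster share windows, and this difference was not tested. Within the second cluster the testis pair is set apart: its nearest other histone promoter, Hist1h1a, lies about 170 kb away. The 4 genes Slc17a1, Slc17a2, Slc17a3 and Slc17a4, which encode phosphate and organic anion transporters, lie in that gap, and their log2 ratios ran from 0.74 to 1.46. Slc17a4, 19147 bases from the pair, had 16 ChIP reads against 20 input reads in v102 and 24 against 47 in v134, a 2.90-fold excess with an adjusted p of 0.00064 by edgeR's quasi-likelihood test. Slc17a1 and Slc17a2 also passed, and Slc17a3 was in the top quartile without passing (adjusted p of 0.13, edgeR). On the other side, Scgn, which encodes the calcium-binding protein secretagogin, had 36 against 30 and 37 against 48, a 4.49-fold excess with an adjusted p of 8.8e-09 (edgeR). Gm11339, 22.7 kb from the pair on that side, had 7 against 23 and 10 against 36, with a ratio of 0.288, and was not called. Hfe, which regulates iron uptake and lies between the histone genes of the cluster, had 1 against 20 and 2 against 40 and was called below input (adjusted p of 0.034, edgeR), a call lost with the experiment as a block (adjusted p of 0.083).

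**Figure D3:**
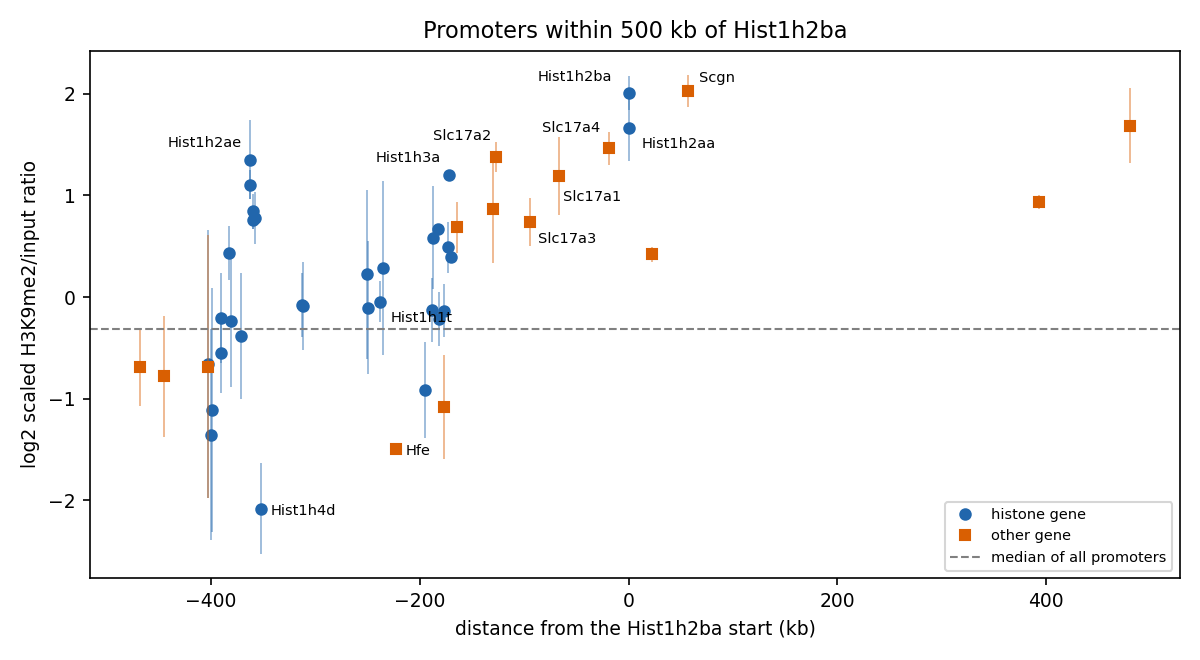
Mean log2 scaled H3K9me2/input ratio (vertical axis; lines join the 2 experiments) of promoters within 500 kb of Hist1h2ba, against distance from its start in kb; circles are histone genes and squares other genes. Hist1h2ba, Hist1h2aa, Slc17a4 and Scgn (2.01, 1.67, 1.46 and 2.03) lie high near a distance of 0, and the bulk of the histone genes, more than 170 kb to the left, are scattered around the median of all promoters.

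The promoters of the family share sequence features that the symbol did not select. RefSeq promoter sequences of 300 bases (250 before and 50 after the start) were found for 54 of the 60. TATAAA, on either strand, occurred in 33 of the 54 (61.1%), against 13.6% of the 32851 promoters in the RefSeq table, and CCAAT in 47 (87.0%) against 37.4%. CCAAT was in every H1, H2A, H2B and H3 promoter with a sequence but in only 3 of 10 H4 promoters. The octamer ATTTGCAT, bound by POU-domain factors, occurred in 13 of the 54, of which 7 were H2A and 6 H2B, against 1.74% of all promoters. The sequences of divergent pairs can overlap, so a site of any of these motifs can be counted for both genes, as the octamer of the testis pair was. AAACACA occurred in 5 of 6 H1 promoters and in all 3 testis-specific ones, against 7.18%, and the match of the divergent testis pair is a single site counted for both genes. TGACGTCA, the cyclic AMP response element, occurred in 4 of the 54 against 1.79%, and in none of the testis-specific promoters. A match says only that these letters are present in the window.

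**Figure D4:**
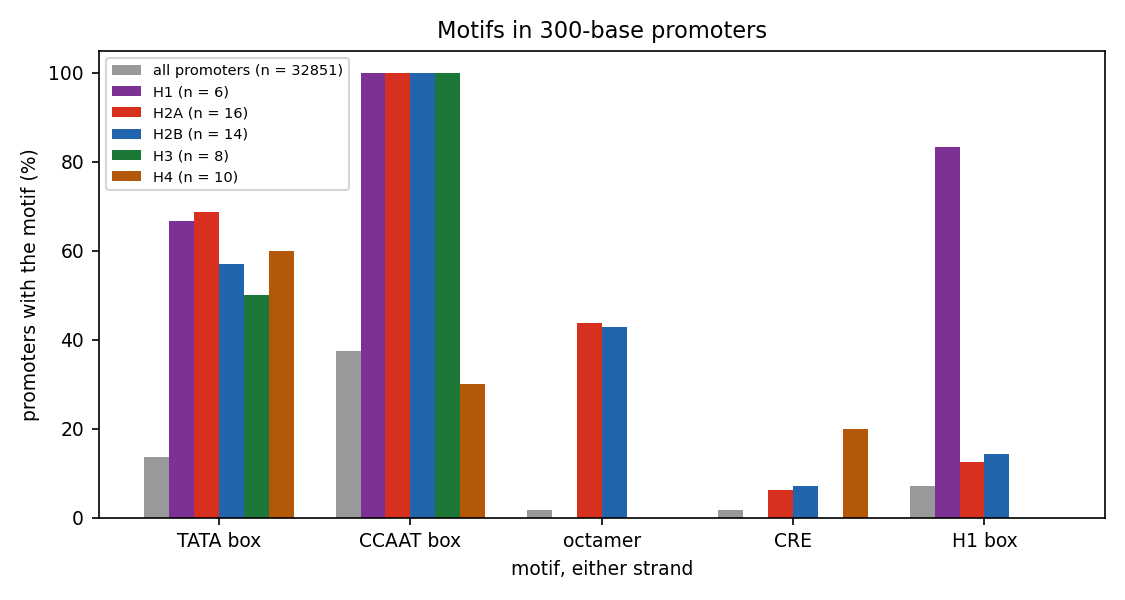
Bars give the percentage of promoters of each histone class, and in grey of all 32851 promoters, with at least 1 match on either strand to the TATA box motif TATAAA, to CCAAT, to the octamer motif ATTTGCAT, to the cyclic AMP response element (CRE) or to the H1 box motif AAACACA. The CCAAT box is in all promoters of H1, H2A, H2B and H3 but 30.0% of H4, and the octamer is in H2A and H2B promoters only among the classes.

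Histone promoters differed from the table in CpG content and in repeated sequence. Within 1 kb of the start, the median GC content was 49.0% for histone promoters and 50.9% for all, and the ratio of observed to expected CpG was 0.74 against 0.44. After a lowess trend on GC content was subtracted, the testis pair lay at the 99.2nd and 97.9th percentiles, the median H2A promoter at the 78.2nd and the median H4 promoter at the 23.7th. Histone genes resemble each other: of all 75-base stretches (the read length) in the window, a median of 14.2% occurred elsewhere in the genome, and 35 of the 60 exceeded 10%, against 3.60% of a sample of 1112 other promoters. A read from such a stretch cannot be placed by its own sequence, or can be split between copies, unless its paired mate places it. The handling of such reads was not given in the sources used here. The highest shares were those of Hist2h2aa2 (54.0%) and Hist2h2aa1 (51.2%), whose values may be uncertain for that reason. The testis pair, at 5.45%, was under 10%, as were Hist1h3a, Hist1h4d and Hist2h4, while Hist1h2ae was at 24.6%. Of the 25 promoters at or under 10%, 3 were in the top quartile, the testis pair and Hist1h3a, and of the 35 above it, 11 were. The part of base composition and of repeated sequence in these values was not tested.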

How the data were processed

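The libraries were H3K9me2 ChIP and input from 2 experiments, named v102 and v134. Per the labels and the study's methods, paired-end reads of 75 bases were trimmed (Trim Galore 0.4.2, cutadapt 1.9.1), aligned to GRCm38 with Bowtie2 2.2.7 and counted within 1 kb of each start site with SeqMonk. The authors deposited raw read counts per promoter for each library, their sums, and an unscaled ratio (the ChIP sum over the input sum). Every promoter had at least 21 input reads in sum. Annotation release and treatment of duplicates were not given in the sources used here.

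From the deposited counts, log2 ratios were computed per experiment with each library scaled by its total over the table and 1 read added, and intervals of the ratio are 95% Wilson intervals. ChIP was compared with input by edgeR 4.0.16 (R 4.3.3, quasi-likelihood test, TMM, Benjamini-Hochberg over all promoters, threshold 0.05), a test tried on simulated counts first. With 2 libraries a group, from separate experiments, p-values rest on the spread between these 4. DESeq2 1.42.0 was an alternative. The experiment number pairs each ChIP library with its own input, per the study's methods; the deviations of the paired libraries correlated at 0.104. Positions are from GENCODE M21 (GRCm38; 22329 of the symbols, 84.7%, and all 60 histone genes matched), which need not be the authors' start sites: RefSeq and GENCODE differ by 1770 bases at Hist1h1d. Promoter sequences are from RefSeq (GRCm38.p6).

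Members, gene lists and tests were chosen with earlier results of these data known. Named with reads were the testis-specific genes, the highest and lowest of each class, every called or top-quartile member and all Hist2h, Hist3h and Hist4h genes. Of other lists, the highest and lowest were named. Hist1h4d, Hist1h2ab and the genes around the testis pair were named after their values were seen.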

Additional observations from a re-analysis of the deposited data

How the results depend on the processing

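The number of histone promoters above input was 4 in the main fit, 2 with the replicate block and 2 by DESeq2, and between 2 and 9 without 1 library. The number below input was 2, with the block also 2, but 4 with library totals in place of TMM, 0 by DESeq2 (which left the adjusted p of 50 of the 60 undefined) and between 0 and 7 without 1 library. The count of 9 above arose without the v102 ChIP library and that of 7 below without the v134 ChIP library, while without the v134 input it was 0 below. Of 504 refits of single promoters under these alternatives, 475 kept their side of the threshold (38 of these, called in neither fit, changed sign), 14 lost a call, 14 gained one, and 1 was called only with its sign turned: Hist1h4h, at 0.0035 on the log2 scale, ranged from -6.97 (without the v134 ChIP library, which leaves 0 ChIP reads) to 0.90 (without that of v102). Hist1h2ba and Hist1h2aa were called above input in all 11 fits, with adjusted p up to 0.0030 and 0.0099 (edgeR and DESeq2).

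With a pseudocount of 5 reads the median of all promoters rose by 0.65 and the medians became 0.49 for all 60, 0.44 for H1, 0.74 for H2A, 0.44 for H2B, 0.47 for H3 and 0.48 for H4, so the lower place of H4 was lost. With at least 20 reads in each input, which 14 histone promoters have, H2A was at 1.67 (1 promoter) and H2B at 0.017 (4 promoters). Relative to the median of all promoters H2B was at 0.014. With the GC trend removed, an alternative chosen after seeing the data, H2A was at 0.77. With 1 promoter per group of overlapping windows H3 was at -0.93 (2 promoters). Without 1 experiment H4 ranged from -0.59 to 0.12 and the count in the top quartile from 8 to 17. It was 2 at the 90th percentile, and 3 among the promoters with little repeated sequence, also chosen after seeing the data. The testis-specific excess over other Hist1h promoters stayed between 1.18 and 2.38 in all 10 alternatives. The cause of these changes was not tested. Outside the main fit and the block, counts of called histone promoters were not set beside the share of all promoters called. Between the main fit and the block, that share changed from 18.6% to 15.8% above input and from 17.0% to 8.30% below it. Changes in the number of called histone promoters between fits are therefore no result about the family.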

Other observations

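Replacement histone genes, which are expressed outside DNA replication and lie apart from the clusters, are described here for comparison. Of 15 measured, 2 (13.3%) were above and 2 (13.3%) below input by the quasi-likelihood test of edgeR, beside 18.6% and 17.0% of all promoters, at a median log2 ratio of -0.24. With the experiment as a block 1 was above and 1 below, since H2afy (adjusted p of 0.094) and H2afv (0.055) were no longer called. The highest was H1fnt, a linker histone of spermatids, with 23 ChIP reads against 24 input reads in v102 and 11 against 29 in v134 (adjusted p of 0.00074, edgeR). The lowest was H2afx, the variant phosphorylated at DNA breaks, with 0 against 23 and 0 against 44, at least 5.14-fold lower than the ratio of the whole table when 3 reads over both libraries are allowed. The 4 germ-line genes of the 15, among them H1fnt, had a median log2 ratio of -0.34, beside -0.31 over all promoters.

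Genes for factors that act on histone gene transcription or on the processing of histone mRNA had a median below that of all promoters. Of 19 measured, 7 (36.8%) were below and 1 (5.26%) above input by edgeR, beside 17.0% and 18.6% of all promoters, with a median log2 ratio of -1.05, at the 28.4th percentile. With the block 5 were below and 1 above, beside 8.30% and 15.8% of all promoters, and Zfp473 (adjusted p of 0.066, edgeR) and Pou2f1 (0.068) were no longer called. The lowest was Npat, the coactivator of histone gene transcription, with 1 against 29 and 0 against 43 (adjusted p of 0.00090, edgeR). The highest was Casp8ap2, needed for the processing of histone mRNA ends, with 10 against 28 and 26 against 39 (adjusted p of 0.0047, edgeR).

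The genes between the histone genes of the clusters whose windows lie apart from them numbered 16, of which 3 (18.8%) were above and 1 (6.25%) below input by edgeR, beside 18.6% and 17.0% of all promoters, with a median log2 ratio of 0.35. With the block 3 were above, and Hfe was no longer called below. In the second chromosome 13 cluster 6 of 7 such neighbours were in the top quartile, and in the first 0 of 8, at median log2 ratios of 0.86 and -0.45. Of all promoters 25.0% were in the top quartile. The windows of Zfp184 and Gm11280, both in the first cluster, overlap, so its 8 neighbours are not separate measurements. The difference between the clusters was not tested.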
